A study of Saccharomyces cerevisiae with 14 samples.

Results

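The step described here is the one in which a population of yeast carrying human cofilin-1 variants had its own cofilin gene switched off, before any selection in glucose or galactose was followed. It comprises 6 of the 24 libraries with counts in the series. One T-1 library and one T0 library came from each of 3 screens, and the abundance of every variant at T0 was set against its abundance at T-1 in the same screen. All 16000 variants were read in all 6 libraries.

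The yeast, Saccharomyces cerevisiae, carried TeTO7-COF1. In this strain the native cofilin gene COF1 (YLL050C, RefSeq R64 chromosome XII, positions 39804 to 40414) is driven by a promoter that doxycycline (DOX) represses. It also carried a plasmid with LIMK1 behind the GAL1 promoter and a plasmid with 1 cofilin-1 variant. Each variant had a His tag before its initiator Met, so position 2 was not at the end of the protein. Both groups of libraries share all of these. At T-1 the cells grew in medium with 2% glucose and no DOX, so COF1 was on. Part of each culture was then moved into fresh medium with 2% raffinose and 10 mg/L DOX and grown up again, and T0 was taken from that culture. The change from T-1 to T0 therefore joins a new carbon source with the loss of COF1 expression. Among these 6 libraries neither change came without the other, so the effects of raffinose and DOX cannot be told apart. The later glucose cultures had DOX without raffinose, but they were grown from the T0 cultures. The 3 screens started from frozen aliquots of a single transformed population. P-values here rest on the spread between those screens. The tests estimate that spread partly from all variants or residues together, so a p-value does not measure the spread of a single variant alone.

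Cofilin binds and severs actin filaments, and yeast cannot grow for long without it. Its short, disordered N-terminal tail touches actin, and phosphorylation of Ser3 in the tail by LIM kinases blocks that contact. After repression starts, Cof1 protein made earlier is diluted as the cells divide. Raffinose neither represses the GAL1 promoter as glucose does nor induces it as galactose does.

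The library varied 4 positions, with 20 residues at positions 2, 4 and 5 and Ser or Thr at position 3. Each residue at position 2, 4 or 5 was thus present in 800 variants. Each residue had 1 codon per position, and all 16000 coding sequences translated to the peptide that names them. Sequences are shown for variants that the results below turn on, with the codon of position 5 in capitals because that position had the widest range of changes. The first 4 are the human, yeast and Arabidopsis tails and the synthetic tail Phe-Thr-Gly-Leu, followed by 4 of the 10 variants that rose the most (DTPH to FSAN), 3 of the 10 that fell the most (ESAG to WTLF) and DSGM, which is compared with its Glu2 form.
ASGV: gctagcggtGTT
RSGV: cgtagcggtGTT
ASGM: gctagcggtATG
FTGL: ttcaccggtCTG
DTPH: gacaccccgCAT
NSPW: aacagcccgTGG
WSGR: tggagcggtCGT
FSAN: ttcagcgctAAC
ESAG: gaaagcgctGGT
ASWW: gctagctggTGG
WTLF: tggaccctgTTC
DSGM: gacagcggtATG

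The T-1 libraries held 7185497 to 35401757 reads and the T0 libraries 13008751 to 29439770. No variant was at 0 in any of them, and the lowest count was 42 at T-1 and 7 at T0. The median variant had 391 to 1926 reads at T-1 and 707 to 1642.5 at T0. Variants with fewer than 100 reads were rare, at most 76 in a T-1 library and at most 419 in a T0 library. The reads come from PCR, and the sources used here do not say whether molecular identifiers were used, so they need not be independent molecules.

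The T-1 library of screen 1 stood apart from the others. Its log2 abundances correlated at 0.948 and 0.945 with those of screens 2 and 3, which correlated at 0.986 with each other. Met5 made up 5.70% of its reads against 7.04% and 7.004%, and Gly4 made up 3.62% against 4.19% and 4.14%, while Asp5 made up 4.71% against 4.22% and 4.28%. By the deposited primer index, the T-1 library of screen 1 was in a sequencing file of its own and had a different forward barcode from those of screens 2 and 3, which shared a file with their T0 library.

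The T0 libraries of all screens had a forward barcode that no other library had, so the barcode and the condition cannot be told apart. The T1 libraries, taken after the next round of growth in glucose or galactose, resembled T-1 more than T0. The T1 glucose library of screen 1 correlated at 0.71 (mean of 2) with the T-1 libraries of the other screens and at 0.45 with their T0 libraries, and the values were 0.61 and 0.31 for screen 2 and 0.60 and 0.42 for screen 3. The T1 galactose libraries, which carry another forward barcode, gave 0.70 and 0.45, 0.59 and 0.33, and 0.60 and 0.44. The order was the same in all 6 T1 libraries. The part of the barcode in the change from T-1 to T0 was not tested. The GC content of the 12 coding bases had an r of −0.0153 to 0.00982 with the change in the 3 screens, and the 48 variants with 10 G or C bases lay 0.19, 0.16 and 0.39 above the mean of all variants.

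Variant abundances were more uneven in the T0 libraries than in the T-1 libraries. The SD of log2 abundance over variants was 0.66, 0.74 and 0.74 at T-1 in screens 1, 2 and 3, and 1.13, 0.97 and 1.15 at T0. Every T0 library was thus more spread than every T-1 library. The spread grew mostly downwards. The 5th percentile of abundance went from between 23.5 and 26.2 reads per 1000000 reads of the library (RPM) at T-1 to between 11.04 and 15.3 at T0, while the 95th percentile went from between 117 and 130 to between 134 and 142. With 16000 variants, an even library would have 62.5 RPM for each.

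The median variant changed little. On the log2 scale, with 0.5 reads added, the median change was −0.12 in screen 1, −0.09 in screen 2 and −0.11 in screen 3. The median size of the change without its sign was 0.546, 0.439 and 0.606, a mean of 0.531 (SD 0.0845, n = 3 screens). In the next interval, from T0 to T1 in glucose, the same measure was 2.20, 2.28 and 2.43, and it was larger in each of the 3 screens (exact two-sided permutation of signs, p = 0.25, the smallest that 3 screens allow). These intervals share the T0 libraries and differ in medium. Single variants moved much further than the median. The lowest change in a screen was −5.05, −2.58 and −4.75, and the highest was 2.45, 2.37 and 2.89.

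By edgeR, 3871 variants (24.2% of those tested) rose from T-1 to T0, 5296 (33.1%) fell and 6833 did not pass the test. The change had the same sign in every screen for 11750 of all 16000 variants, and for 8941 of the 9167 called. A fitted rise of at least 2-fold was called for 764 variants and a fall of at least 2-fold for 2024. Without screen 1, whose T-1 library stood apart, 3200 variants rose and 4231 fell. When the spread was instead taken from all 24 libraries of the series, 269 rose and 2565 fell. Scaling by TMM, which moved the median change by 0.11 on the log2 scale, gave 4643 rises and 4400 falls, so whether falls outnumber rises depends on the scaling and the text below gives changes of residues relative to the mean of all variants.

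The change of a variant was repeated closely between screens. The correlation of the log2 change across the 16000 variants was 0.82 for screens 1 and 2, 0.84 for screens 1 and 3 and 0.84 for screens 2 and 3. This is a description over variants that share libraries and sequence. When the 160 variants with the lowest change were chosen in 1 screen, all 160 also had a change below 0 in each of the other screens. For those chosen in screen 1, the median was −3.43 there, −1.76 in screen 2 and −3.27 in screen 3. The 160 variants highest in screen 1 had medians of 1.60 there, 1.16 in screen 2 and 1.41 in screen 3, and 160 and 159 of them were above 0 in screens 2 and 3. Screen 2 had the smallest changes at both ends.

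Of the single residues, those at position 5 had the widest range of changes. A residue term is the mean log2 change of the 800 variants with that residue minus the mean of all variants in the same screen, tested over the 3 screens with limma. Of 62 terms, 21 (33.9%) were above 0, 16 (25.8%) were below 0 and 25 did not pass the test. Without screen 2, 7 were above 0 and 9 below, and the calls at positions 2 and 4 were then Trp2, Leu4, Trp4 and Gln4. Without screen 1, 13 were above 0 and 15 below, and all terms of Met, Leu, Ile, Thr, Val, Asp, Asn, Glu and Gln at position 5 kept their call. The terms of position 5 spanned 0.85 on the log2 scale, those of position 4 spanned 0.52, those of position 2 spanned 0.39, and Ser3 and Thr3 differed by 0.02.

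Variants with an aliphatic residue or Thr at position 5, the kinds of residue that natural cofilins have there, lost abundance. The Met5 term was −0.45, −0.35 and −0.61 in screens 1, 2 and 3 (mean −0.47, SD 0.13, SE 0.06, adjusted p = 0.00791). All 3 screens were below 0, and screen 3 had the largest fall. Of the 800 Met5 variants, 531 fell and 32 rose, where 33.1% of all variants fell. The Leu5 and Ile5 terms were both −0.38 (SD 0.12 and 0.11), Thr5 was −0.38 (SD 0.12) and Val5 was −0.33 (SD 0.10), each with an adjusted p of 0.00791. Cys5 was also below 0, at −0.24 (SD 0.11, adjusted p = 0.0160). Ala5 lay nearer to 0, at −0.11 (SD 0.04, adjusted p = 0.0277), and did not keep its call in every setting. Together, 2400 of the 4000 variants with Met, Leu, Ile, Val or Thr at position 5 fell (60.0%) and 238 rose (5.95%).

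Their share of the reads shows the same in the raw data. These 4000 variants held 29.7%, 34.5% and 34.5% of the T-1 reads in screens 1, 2 and 3, and 22.6%, 27.6% and 23.4% of the T0 reads. The T0 share was below the T-1 share in every screen, and the 3 T0 values all lay below the 3 T-1 values. Met5 alone went from 5.70%, 7.04% and 7.004% of reads to 4.03%, 5.48% and 4.46%, a mean ratio of 0.707 (SD 0.0709).

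Acidic and amide residues and His at position 5 lay above the mean. Asp5 was the highest term, at 0.33, 0.32 and 0.48 (mean 0.38, SD 0.09, SE 0.04, adjusted p = 0.00791), with 359 of its 800 variants rising and 114 falling. Asn5 was 0.34 (SD 0.07), Glu5 was 0.32 (SD 0.11), Gln5 was 0.28 (SD 0.08) and His5 was 0.23 (SD 0.05), with adjusted p of 0.00921 for Glu5 and 0.00791 for the others. The aromatic residues Tyr5 (0.24, SD 0.08, adjusted p = 0.00960) and Trp5 (0.17, SD 0.05, adjusted p = 0.00921) were above 0 as well, while Phe5 was −0.04 (SD 0.05, adjusted p = 0.258). Of the 5600 variants with Asp, Glu, Lys, Arg, His, Asn or Gln at position 5, 2011 rose (35.9%) and 1016 fell (18.1%), against 24.2% and 33.1% of all variants.

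The basic residues differed the most between screens at this position. Lys5 was −0.01, 0.07 and 0.31 in screens 1, 2 and 3 (adjusted p = 0.196), and Arg5 was −0.10, 0.12 and 0.22 (adjusted p = 0.351). Screen 1 was lowest for both and screen 3 highest. Without screen 1, Lys5 was 0.19 (adjusted p = 0.0117) and Arg5 was 0.17 (adjusted p = 0.00953). Pro5 (0.02) and Ser5 (0.06) did not pass the test either. Gly5 did, at 0.08 (SD 0.03, adjusted p = 0.0316), but not without the replicate block that pairs T-1 and T0 by screen (0.0587), without screen 1 (0.108) or without screen 2 (0.132).

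**Figure D1:**
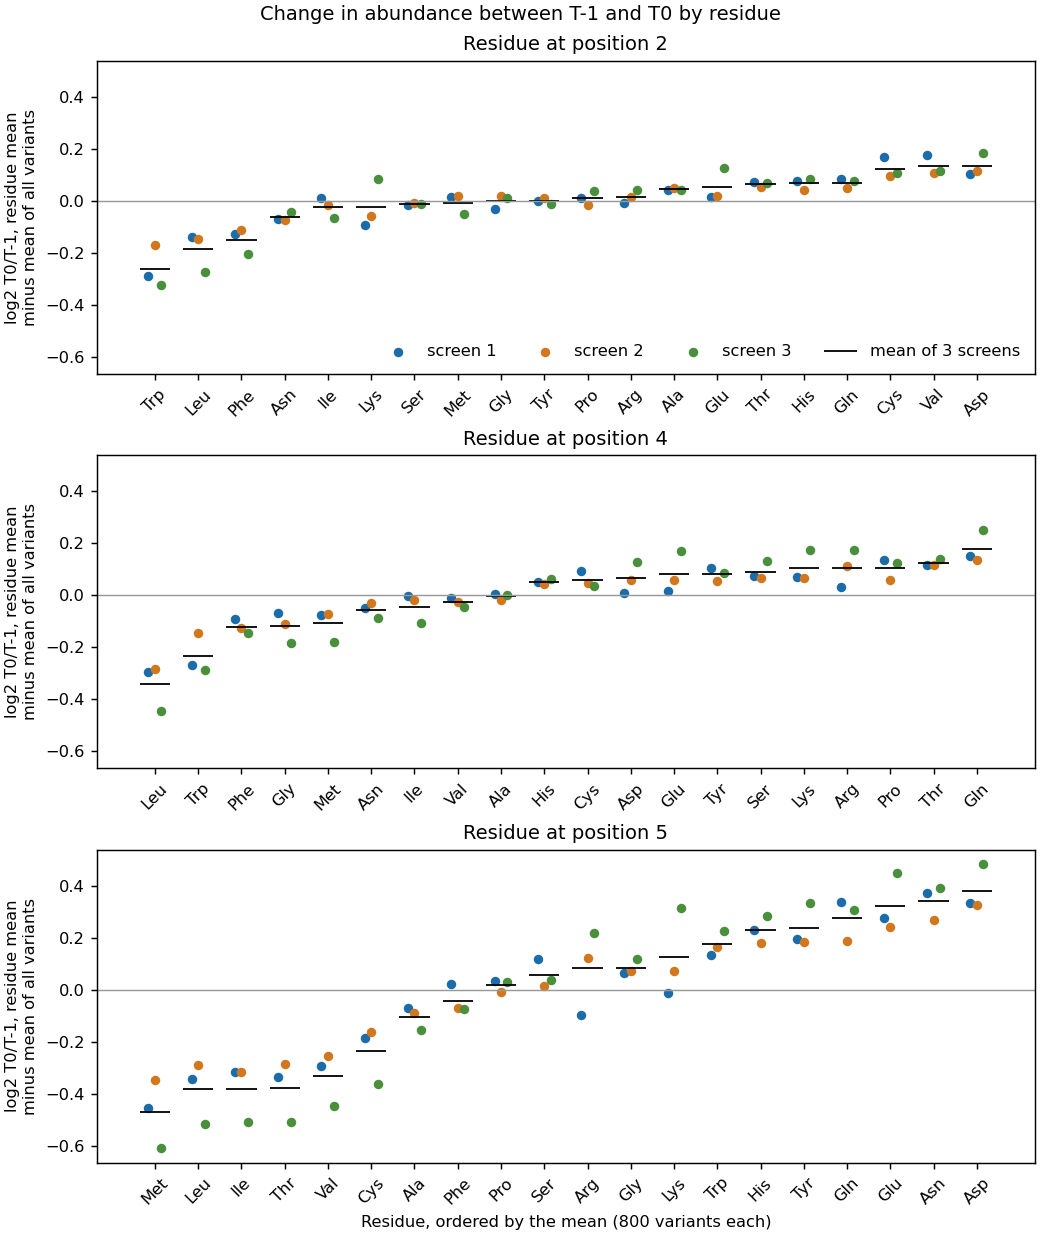
Residue terms for positions 2, 4 and 5, ordered by their mean. The y axis is the mean log2 change from T-1 to T0 of the 800 variants with a residue minus the mean of all variants, the points are the 3 screens and the black bars their means. At position 5, Met, Leu, Ile, Thr and Val lie between −0.47 and −0.33 and Asp, Asn and Glu between 0.32 and 0.38, while at position 2 the means run from −0.26 to 0.13.

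At position 4, where natural cofilins have Gly, the lowest term was that of Leu4, at −0.29, −0.28 and −0.44 (mean −0.34, SD 0.09, adjusted p = 0.00791). Trp4 was −0.23 (SD 0.08, adjusted p = 0.00921), Phe4 −0.12 (SD 0.03, adjusted p = 0.0120), Gly4 −0.12 (SD 0.06, adjusted p = 0.0295) and Met4 −0.11 (SD 0.06, adjusted p = 0.0388). The call of Gly4 was lost without the replicate block (adjusted p = 0.0701), without screen 2 (0.108) and with summed read shares (0.128). It was also lost with a minimum mean of 500 reads, where the term was −0.06 (adjusted p = 0.169). Leaving out the variants with a mean change below −2 removed the call as well (adjusted p = 0.0704). The call was kept without screen 1 (adjusted p = 0.0201), without screen 3 (0.0161) and with 5 reads added (0.0311). Of the aliphatic residues, Ile4 (−0.04) and Val4 (−0.03) did not pass the test. Gln4 was highest, at 0.15, 0.14 and 0.25 (mean 0.18, SD 0.06, adjusted p = 0.0120). Thr4 (0.12, adjusted p = 0.00921), Pro4 (0.11, 0.0251), Arg4 (0.11, 0.0482), Lys4 (0.10, 0.0432), Ser4 (0.09, 0.0302) and Tyr4 (0.08, 0.0301) were also above 0. Without screen 2, only Leu4, Trp4 and Gln4 had a call at this position. Asp4 (0.07) and Glu4 (0.08) did not pass, and both were lowest in screen 1.

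At position 2, which precedes the phosphorylation site, Trp, Leu and Phe had the lowest terms. Trp2 was −0.29, −0.17 and −0.32 (mean −0.26, SD 0.08, adjusted p = 0.00921), Leu2 was −0.19 (SD 0.08, adjusted p = 0.0137) and Phe2 was −0.15 (SD 0.05, adjusted p = 0.0124). Asp2 (0.13), Val2 (0.13) and Cys2 (0.12) were the highest, with SDs of 0.04 each. Other large hydrophobic residues did not pass the test, with Ile2 at −0.02 (adjusted p = 0.459), Met2 at −0.01 (adjusted p = 0.854) and Tyr2 at 0.0001 (adjusted p = 0.996). The human residue Ala2 was 0.05 (SD 0.005, adjusted p = 0.0931) and the yeast residue Arg2 was 0.02 (SD 0.02, adjusted p = 0.546). Ser3 and Thr3 did not separate (0.01 and −0.01, adjusted p = 0.663). Of the 8000 variants with each, 1980 with Ser3 rose and 2502 fell, and 1891 with Thr3 rose and 2794 fell, all near the shares over all variants (24.2% rose and 33.1% fell).

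The residues of positions 4 and 5 can be read together by class. With an aliphatic residue (Val, Ile, Leu or Met) at position 5, the mean change relative to all variants was −0.56 (SD 0.14) when position 4 was aromatic, −0.49 (SD 0.13) when it was aliphatic and −0.45 (SD 0.13) when it was small (Gly, Ala or Ser). It was nearer to 0, at −0.17 (SD 0.05), with an acidic residue at position 4 and at −0.23 (SD 0.11) with Thr4. Of 480 variants with an aromatic and then an aliphatic residue, 364 fell and 8 rose, where 33.1% of all variants fell and 24.2% rose. At the other end, Pro4 with an acidic residue at position 5 was 0.52 (SD 0.13), with 44 of 80 variants rising and 10 falling. Acidic residues at position 5 were above the mean with every class at position 4, from 0.23 with aliphatic to 0.52 with Pro4.

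**Figure D2:**
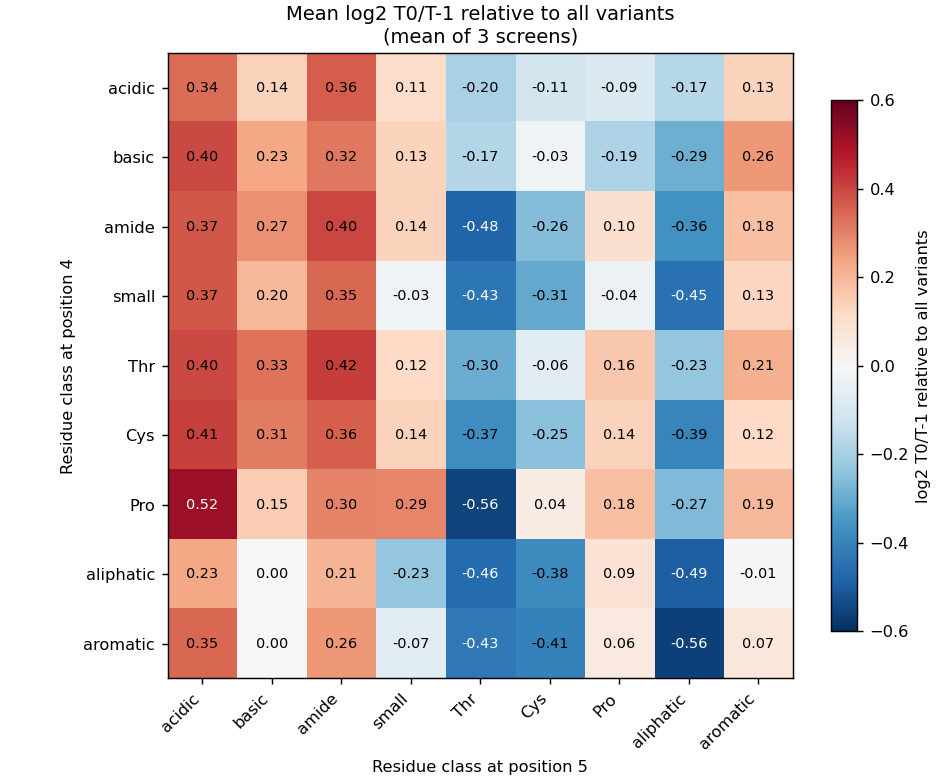
Mean log2 change from T-1 to T0, relative to all variants and averaged over 3 screens, for residue classes at position 4 (rows) and position 5 (columns), with red above and blue below the mean of all variants. The aliphatic and Thr columns are below 0 in every row, and the acidic and amide columns are above 0 in every row.

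Pairs of residues departed from the sum of their single terms in many cases. A pair term is the mean change of the variants with both residues minus what the single terms give. Of all pair terms, 286 (21.7%) were above 0 and 273 (20.7%) below 0 by limma. Of the 559 called, 4 involved position 3, each with a residue at position 5, where 40 pair terms were tested for position 3 with each of the other positions. Fewer were called with 1 screen left out, at 115 above and 111 below without screen 1 and 94 and 88 without screen 3. The lowest were Trp2 with Tyr5 (−0.71, SD 0.21, adjusted p = 0.00663) and Trp2 with Phe5 (−0.69, SD 0.20, adjusted p = 0.00663), then Asn4 with Thr5 (−0.52), Trp2 with Trp5 (−0.47) and Ser4 with Pro5 (−0.41). The 40 variants with Trp2 and Phe5 changed by −1.34, −0.81 and −1.31 in screens 1, 2 and 3, with 30 falling and 1 rising. The highest were Gly4 with Asn5 (0.42), Trp2 with Gly4 (0.40), Arg4 with Phe5 (0.40), Ile4 with Ala5 (0.39) and Trp2 with Asn5 (0.36), with adjusted p of 0.00663 to 0.00666.

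Gly4 with Val5 or Met5, as in the human and Arabidopsis tails, and Leu4 with Val5 were also examined. Of all variants, 33.1% fell and 24.2% rose. The 40 variants with Gly4 and Val5 changed by −0.31, −0.66 and −0.91 in screens 1, 2 and 3, with 29 falling and 0 rising, and their pair term was −0.02 (SD 0.25, adjusted p = 0.893). The 40 with Gly4 and Met5 changed by −0.84, −0.73 and −1.09, with 32 falling and 0 rising, and a pair term of −0.14 (SD 0.04, adjusted p = 0.0138). The call of that pair term was lost without screen 1 (adjusted p = 0.0506) and without screen 3 (0.0611). The 40 with Leu4 and Val5 changed by −0.79, −0.75 and −1.03, with 35 falling and 0 rising. At an unadjusted p under 0.05, edgeR gave 0 rises in each of these pairs. DESeq2 gave 1 rise and TMM 2 with Gly4 and Met5, and both gave 0 with the others.

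Single variants departed from their residues more than the residue terms differed from each other. The single residues accounted for 10.98%, 14.4% and 20.6% of the variance of the change over variants in screens 1, 2 and 3, and residues with pairs for 21.5%, 23.2% and 30.1%. For the next interval, T0 to T1 in glucose, the same fits accounted for 68.3% (SD 0.477) and 83.9% (SD 0.423). The part of the T-1 to T0 change that residues and pairs left over still correlated between screens, at 0.81, 0.84 and 0.81 over the 16000 variants. A variant with Thr3 and its partner with Ser3, which are otherwise alike, had correlated changes of only 0.17, 0.17 and 0.26 in the 3 screens, against 0.81, 0.82 and 0.81 for T0 to T1. Variants were hence repeatable between screens but less alike between close sequences than in the later interval.

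The same shows in the test of the partners. The change of the Thr3 form minus that of the Ser3 form was above 0 for 1744 of 8000 pairs (21.8%) and below 0 for 1924 (24.1%) by limma, with a mean of −0.02 (SD 0.02). By residue, the mean difference was lowest with Thr5, at −0.28, −0.18 and −0.32, where the Ser3 form was higher in 120 of 400 pairs and the Thr3 form in 50. It was −0.17 (SD 0.07) with Asp4, −0.15 (SD 0.08) with Pro5 and −0.14 (SD 0.05) with Met5. It was highest with Gly5 (0.14, SD 0.05), Leu4 (0.11, SD 0.01) and Pro2 (0.11, SD 0.04).

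The human tail Ala-Ser-Gly-Val (ASGV) had 65.1, 117 and 106 RPM at T-1 in screens 1, 2 and 3 and 65.0, 61.2 and 42.9 at T0. It did not move in screen 1 and fell in screens 2 and 3. The edgeR change was −0.75 (SE 0.17, adjusted p = 5.5e-05, or 0.0182 by limma on log2 ratios). The SD of its log2 ratios over the screens was 0.67. Without screen 1 it was −1.11 and without screen 3 it was −0.47 (adjusted p = 0.0446). Its Thr3 form ATGV, which LIMK1 does not readily phosphorylate, went from 58.0, 92.3 and 91.6 to 43.9, 55.9 and 53.5 RPM (−0.63, SE 0.18, adjusted p = 0.00106). All T0 values of ATGV lay below all of its T-1 values.

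The yeast tail RSGV went from 55.4, 115 and 109 RPM to 42.1, 48.5 and 50.2, a change of −0.92 (SE 0.18, adjusted p = 1.1e-06). The T0 values all lay below the T-1 values, and the fall was smallest in screen 1. The Arabidopsis tail ASGM went from 70.6, 125 and 133 to 74.6, 91.3 and 81.8, with a slightly higher value at T0 in screen 1 (−0.36, SE 0.16, adjusted p = 0.0385). The call of ASGM was lost with TMM (adjusted p = 0.163), with DESeq2 (0.166), with limma on log2 ratios (0.137), with the spread from all 24 libraries (0.231), without the replicate block (0.140), without screen 2 (0.196) and without screen 3 (0.403, with a change of −0.19). FTGL went from 26.3, 63.1 and 77.5 to 11.5, 23.9 and 31.7, with the T0 value below the T-1 value in every screen though the groups overlapped (−1.30, SE 0.23, adjusted p = 1.1e-07). LSGV had a similar change of −1.29 (SE 0.21, adjusted p = 1.9e-08), and LSGM one of −0.56 (SE 0.19, adjusted p = 0.00645) that was not called without screen 2 (adjusted p = 0.0779), without screen 3 (0.0976), with the spread from all 24 libraries (0.0531) or without the replicate block (0.0715).

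ASLV, which has Leu in place of Gly4 of the human tail, had an edgeR change of −0.51 (SE 0.18, adjusted p = 0.0108), without a call when screen 3 was left out (adjusted p = 0.131) or with the spread from all 24 libraries (0.0528). ASFV (−0.21), ASKV (−0.27), ASPV (−0.32), ASGE (−0.09) and ASEV (0.06) did not pass the test. DSDD, with 3 acidic residues, had 26.5, 22.2 and 22.7 RPM at T-1 and 30.1, 15.1 and 24.9 at T0, with no call (−0.08, adjusted p = 0.836).

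Asp2 and Glu2, acidic residues that differ by a methylene group, are given side by side. DSGM had 37.5, 33.4 and 35.8 RPM at T-1 and 3.46, 10.6 and 3.53 at T0, a fall in every screen with no overlap (−2.77, SE 0.37, adjusted p = 1.1e-12). ESGM, with Glu in place of Asp, went from 37.7, 82.5 and 84.1 to 32.4, 39.8 and 41.99 (−0.76, SE 0.19, adjusted p = 2.6e-04). DSGT rose, from 40.8, 38.4 and 32.3 to 52.6, 53.1 and 61.8 (0.58, SE 0.20, adjusted p = 0.00898, or 0.154 without screen 3 and 0.377 with the spread from all 24 libraries), and ESGT went from 26.7, 29.9 and 28.1 to 16.9, 23.4 and 14.9 without passing the test (−0.64, SE 0.31, adjusted p = 0.0641), though it did without screen 2 (0.0454) and with limma on log2 ratios (0.0114). With Leu5, ESGL went from 43.7, 77.2 and 80.4 RPM to 46.3, 55.1 and 53.1 (−0.34, SE 0.18, adjusted p = 0.105), and passed the test without screen 1 (0.0304). DSGL went from 43.5, 49.7 and 61.1 to 51.3, 66.7 and 59.7 (0.21, SE 0.19, adjusted p = 0.334). ESGI went from 69.8, 129 and 122 to 43.7, 95.7 and 53.3, lower at T0 in every screen with overlap between the groups (−0.76, SE 0.16, adjusted p = 1.5e-05, or 0.0593 without the replicate block). The differences between these variants were not tested.

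**Figure D3:**
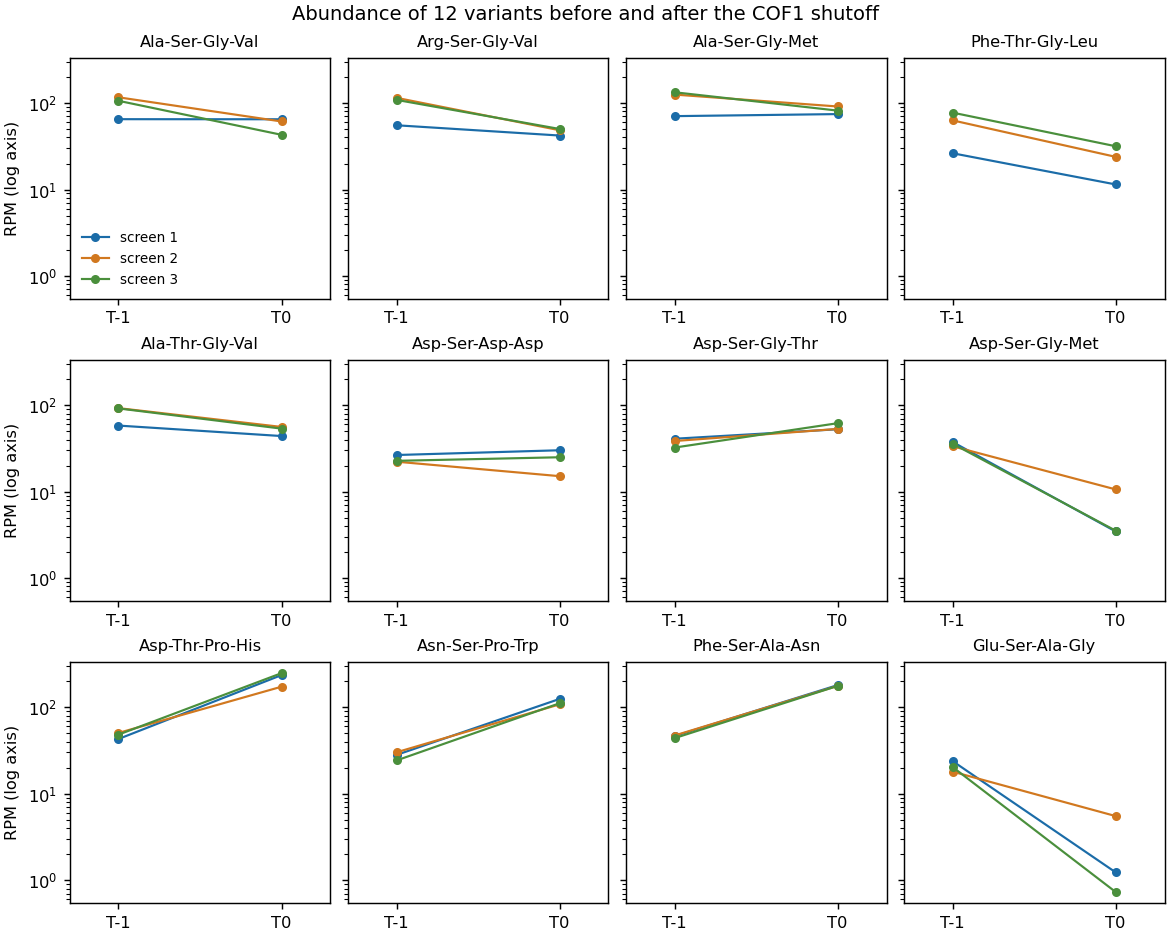
Abundance of 12 variants at T-1 and T0 in RPM (log axis), with 1 line per screen. The human, yeast and Arabidopsis tails and Phe-Thr-Gly-Leu are in the top row, Asp-Ser-Gly-Met falls from about 35 to between 3.46 and 10.6, and the 3 variants at the lower left rise in every screen.

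In scans of the human tail, 1 position at a time was replaced by any residue. Over all variants, 24.2% rose and 33.1% fell, which is near the shares in some of these scans. Of the 20 variants with any residue at position 2 of the human tail (xSGV), 15 fell and 0 rose, with a median change of −0.74 against −0.10 for all variants. The lowest was KSGV (−1.63), and FSGV (0.05), PSGV (−0.01) and GSGV (−0.11) did not pass the test. With Thr3 (xTGV), 14 of 20 fell and 0 rose, with a median of −0.55. The xSGV and xTGV variants are the same 40 variants with Gly4 and Val5 that were described above. With any residue at position 4 (ASxV), 8 fell and 3 rose, with a median of −0.26. The 3 that rose were ASRV (1.01), ASSV (0.59) and ASHV (0.46), and the lowest were ASVV (−1.86), ASAV (−1.47) and ASWV (−1.17). With Thr3 (ATxV), 12 fell and 0 rose. With any residue at position 5 (ASGx), 10 fell and 1 rose, with a median of −0.28. ASGK (0.84) rose, and ASGP (−2.99), ASGC (−1.87) and ASGA (−1.74) were lowest. With Thr3 (ATGx), 5 fell and 3 rose, ATGW (−2.49) and ATGF (−1.55) being lowest and ATGH (0.84) and ATGD (0.67) highest. For the scans with 0 rises, edgeR also gave 0 at an unadjusted p under 0.05, and DESeq2 and TMM gave 0 in xSGV and xTGV and 3 each in ATxV.

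The variants that rose the most gained about 4-fold. DTPH had 42.9, 50.4 and 48.2 RPM at T-1 and 235, 173 and 248 at T0. This was a 4.57-fold rise by edgeR (log2 2.19, SE 0.15, adjusted p = 2.6e-42), with an SD of the log2 ratios over screens of 0.37. NSPW went from 28.0, 30.1 and 24.2 to 125, 108 and 111 (2.06, SE 0.18, adjusted p = 5.9e-27). FSAN went from 46.3, 47.0 and 43.8 to 180, 176 and 176 (1.96, SE 0.16, adjusted p = 5.8e-32), the most even of the group. The other 7 of the 10 highest were NSHA, NSPR, WSGR, NSGN, NTGE, SSAR and ASRA, with log2 changes of 1.95 to 2.11. None of the 10 had an aliphatic residue or Thr at position 5, where 4000 of all 16000 variants have one. Asn2 was present in 5 of the 10, against 5% of the library, and its own term was −0.06 (adjusted p = 0.0482). As the variants were chosen by their change, these counts are a description.

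The variants that fell the most lost about 9-fold or more, and most of that in screens 1 and 3. ESAG went from 23.8, 17.97 and 20.3 RPM to 1.23, 5.50 and 0.729, which is 459, 636 and 146 reads at T-1 and 16, 162 and 13 at T0. Its edgeR change was −3.43 (SE 0.55, adjusted p = 5.2e-09), with an SD of the log2 ratios over screens of 1.63. ASWW went from 18.1, 12.03 and 16.98 to 0.692, 3.19 and 1.23 (−3.30, SE 0.64, adjusted p = 1.5e-06). WTLF went from 47.0, 39.5 and 39.2 to 2.92, 7.98 and 3.92 (−3.16, SE 0.34, adjusted p = 2.8e-18). No T0 value of these variants reached a T-1 value. The other 7 were WSTG, DSHW, ESWR, GTHW, KSHL, LSAW and PSER, with log2 changes of −3.26 to −3.18. Of the 10, 4 had Trp at position 5, against 5% of the library, though the Trp5 term was above 0 (0.17). An aliphatic residue was there in 1 of the 10, against 3200 of all 16000 variants. These counts too are a description of variants chosen by their change.

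The variants with the lowest changes followed the residue terms in part. A mean change below −2 was found for 343 variants, and above 2 for 5. The median change of the 343 was −2.93 in screen 1, −1.66 in screen 2 and −2.96 in screen 3, and every one was below 0 in all screens. Since the 343 were chosen by their mean over the same screens, these values are a description. Ser3 was present in 60.6% of them, against 50% of the library. Each residue at position 2, 4 or 5 makes up 5% of the library. Trp2 was present in 13.7% of the 343, Asn2 in 9.33% and Lys2 in 8.75%. At position 4 these were Trp4 (11.4%), Asn4 (9.91%), Leu4 (9.62%) and Gly4 (8.45%), and at position 5 Leu5 (10.8%) and Ala5 (8.16%). Gly5, Trp5 and Arg4, whose terms were above 0, were present in 10.8%, 8.45% and 7.87%. Met5 was present in 5.25%, Thr5 in 4.37%, Ile5 in 3.21% and Val5 in 1.75%. They had a median of 59, 260 and 70 reads at T0. With them left out, 17 residue terms were above 0 and 13 below.

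Variants that later gained in glucose tended to have lower changes in the shutoff. The later change was taken as T1 to T2 in glucose of the same screen, which uses neither T-1 nor T0. Across the 16000 variants, r was −0.50, −0.40 and −0.49 in screens 1, 2 and 3 (Spearman's rho −0.52, −0.42 and −0.52). In the bin of 1600 variants that later fell the most, the median change from T-1 to T0 was 0.54, 0.22 and 0.39, and in the bin of 1600 that later rose the most it was −0.76, −0.54 and −0.90. Of the latter bin, 91.9% (SD 3.35) had a change below 0, against 28.2% (SD 6.94) of the former. With the later change taken as T0 to T2 and averaged over the other 2 screens, r was −0.36, −0.46 and −0.54. That measure shares no library with the change it is set against, but it contains T0 libraries of the other screens, whose shared features enter both.

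**Figure D4:**
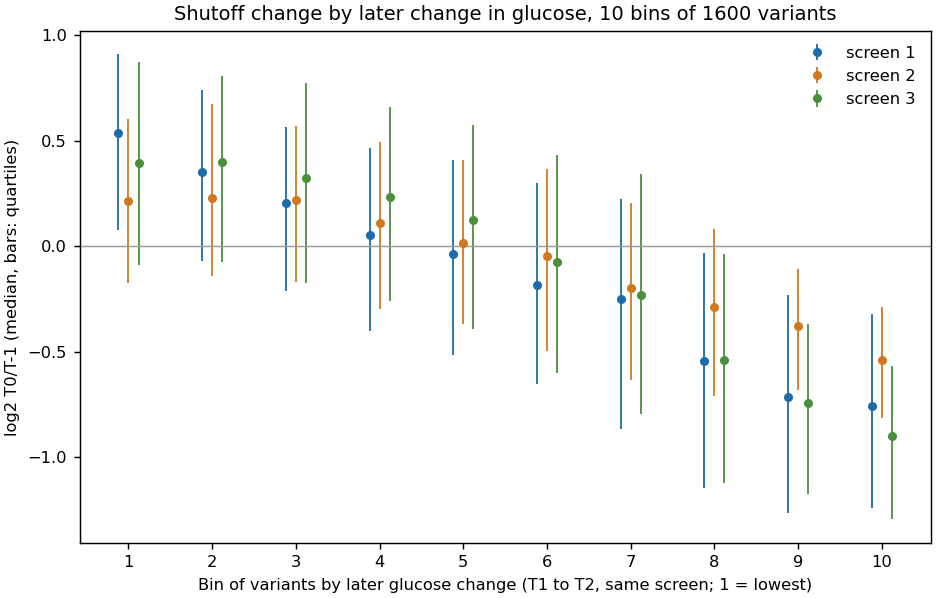
Log2 change from T-1 to T0 for variants ordered by their later change in glucose (T1 to T2, same screen) and grouped into 10 bins of 1600. Points are medians, bars reach from the 25th to the 75th percentile and colours are screens, and the medians go from between 0.22 and 0.54 in the lowest bin to between −0.90 and −0.54 in the highest.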

How the data were processed

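The data are read counts per variant. Plasmids were recovered from yeast, the authors amplified the variable region by PCR with barcoded primers and sequenced it on an Illumina instrument, and the raw counts were deposited as 1 sheet per screen. The program that assigned reads to variants is not given in the sources used here. The T-1 columns of screens 2 and 3 were tied to their screen through the primer index. The plasmid library before yeast had no count column and was not analysed here.

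Each count was taken as a fraction of its library's total. For single variants, edgeR 4.0.16 was run on the counts by its quasi-likelihood test, without a filter, with the totals as library sizes and the screen as a block. Within a screen, log2 ratios were taken with 0.5 reads added. Residue terms, pair terms and Thr3 minus Ser3 differences were tested with limma 3.58.1 on 1 value per screen. P-values were adjusted by Benjamini-Hochberg over everything a test covered, and 0.05 was the threshold. SDs are over 3 screens. An SE comes from its test, for edgeR from the change and its F statistic. Like the p-values, an SE rests partly on all variants or terms together and is not the error of a single variant over the screens. The edgeR and limma steps were tested on simulated data with known changes.

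T-1 and T0 were paired by screen because the raffinose culture was diluted from the glucose culture of the same screen. Deviations of T-1 and T0 libraries from their group means correlated at 0.26, 0.25 and 0.05 within screens and at −0.25 to 0.14 between screens. The T-1 library of screen 3 correlated more with T0 of screen 2 (0.14) than with its own T0 (0.05). Deviations from a group mean sum to 0, which lowers the values between screens, so these values cannot decide the pairing.

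Named variants are a list drawn mostly from the paper, the single-position scans of the human tail, and the 10 highest and 10 lowest called changes with the same sign in every screen. All 62 residue terms were described, and the 5 highest and 5 lowest called pair terms were named. The pairs of Gly4 with Val5 or Met5 and of Leu4 with Val5 were added after their values were seen. DSDD came from earlier results of these data, and ESGL, DSGL and ESGI, which the paper names, were added later. Members, lists and tests were chosen with earlier results of these data known.

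The alternatives were TMM scaling, DESeq2 1.42.0, mean count minimums, other added reads, no block, a spread from all 24 libraries, limma for variants, summed read shares and leaving out each screen. R 4.3.3, Python 3.11.15, numpy 2.4.6, pandas 2.3.3, scipy 1.17.1 and matplotlib 3.10.9 were used.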

Additional observations from a re-analysis of the deposited data

How the results depend on the processing

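The single-variant counts were within 1.5 times of 3871 rises and 5296 falls with TMM (4643 and 4400), DESeq2 (4405 and 4627), limma on log2 ratios (3413 and 5052) and without the replicate block that pairs T-1 and T0 by screen (3622 and 4591). They were not with the spread from all 24 libraries (269 and 2565, with 9.49% of calls rising against 42.2%). The cause was not tested. Leaving out a screen gave 3027 to 3331 rises and 4119 to 4788 falls. The residue terms then numbered 7 to 21 above and 9 to 17 below 0, the pair terms 94 to 218 and 88 to 207, and the Thr3 minus Ser3 differences 1339 to 1591 and 1460 to 1774. The fewest residue terms were left without screen 2 (7 and 9), and the fewest pair terms without screen 3. The mean Thr3 minus Ser3 difference stayed between −0.03 and −0.01, and the mean r with the later change between −0.50 and −0.45 for T1 to T2 and between −0.50 and −0.41 for T0 to T2. Without the block, 23 residue terms were above and 15 below 0, 240 and 229 pair terms, and 1790 and 1988 Thr3 minus Ser3 differences, the calls of ASGM, LSGM, ESGI, Gly4 and Gly5 were lost, and Ala2, His4 and Cys4 gained one.

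The position 5 terms of Met, Leu, Ile, Thr, Val, Asp, Asn, Glu and Gln kept their direction and call in every setting. Summed read shares gave 16 terms above and 13 below 0. A minimum mean of 50 reads removed no variant, so one of 500 reads, chosen after seeing the data, was added. It left 14891 variants, of which 3859 rose and 4614 fell.

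Values that changed sign were close to 0 with the main processing, but not in every alternative. Of these, Asn2 was called below 0 (adjusted p = 0.0482), but not without screen 1 (0.313), without screen 2 (0.246) or without the lower tail (0.401). Gly2 was called above 0 with the minimum of 500 reads (0.0427), and Lys2 was called below 0 without screen 3 (0.0211). Cys4 was called above 0 without screen 3 (0.0286) and without the block (0.0340). ASGE changed by 0.0181 with TMM and 0.0054 with the spread from all libraries, and DSDD by 0.0293 with TMM and 0.00291 with DESeq2. Without 1 screen, ASGE ranged from −0.387 to 0.197, DSDD from −0.216 to 0.160 and ASEV from −0.0598 to 0.168. With 5 reads added the terms were 0.00105 for Gly2 and −0.000947 for Tyr2. With the minimum of 500 reads they were 0.0721 for Gly2, 0.0142 for Lys2, 0.0720 for Asn2, −0.0539 for Tyr2 and 0.0419 for Ala4. With summed read shares they were 0.0488 for Gly2, 0.0131 for Lys2, 0.00849 for Asn2, −0.0579 for Tyr2, 0.0402 for Ala4 and −0.00108 for Cys4. Without the 343 variants of the lower tail, a setting also chosen after seeing the data, they were 0.0353 for Gly2, 0.0166 for Lys2, −0.00152 for Pro2 and −0.0341 for Tyr2. Without 1 screen they ranged from −0.00924 to 0.0152 for Gly2, −0.0755 to 0.0128 for Lys2, −0.0184 to 0.0169 for Met2, −0.00276 to 0.0239 for Pro2, −0.00642 to 0.0057 for Tyr2 and −0.00761 to 0.00331 for Ala4, and the pair terms from −0.155 to 0.0782 for Gly4 with Val5 and −0.0528 to 0.0236 for Leu4 with Val5. With the fewest reads, 7 to 100 in a T0 library, the counting error of a single variant is largest, and the T-1 library of screen 3 was the shallowest.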
